A study of Mus musculus with 8 samples.

Results

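The 6 feedback genes of cytokine signalling Socs1, Socs2, Socs3, Cish, Pim1 and Pim2 were followed in liver CD4+ T cells of newborn mice lacking Aire, the thymic regulator of self-antigen expression. They were chosen by gene symbol and make up 6 of the 52997 symbols in the count table. All 6 were among the 11490 genes with enough counts to be tested. The cells came from mice labelled Aire- Foxp3 GFP+ (C57/Bl6). They were sorted as live (DAPI negative) CD45+ TCRb+ CD4+ cells without Foxp3, and then divided by PD-1, the checkpoint receptor that Pdcd1 encodes. At 10 days of age PD-1+ cells were set against PD-1- cells, and likewise at 5 days, with 2 libraries in each of these 4 groups and 1000 double-sorted cells for each library. Every group carried the Aire defect and the Foxp3 reporter, and no Aire-sufficient group was analysed here. The labels do not say whether the libraries came from separate animals, so p-values measure only the spread between these libraries, which may be partly technical.

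Cytokines such as IL-2, IL-7, IL-21, interferons and the IL-6 family signal through JAK kinases, which phosphorylate receptors and STAT transcription factors. STATs then switch on Cish and the Socs genes, whose proteins bind the receptor or the kinase through an SH2 domain and recruit a ubiquitin ligase through a SOCS box, so that the pathway shuts itself down. The same signals induce the Pim genes, which encode serine/threonine kinases that favour T cell survival and growth. CIS, the product of Cish, is a STAT5 target best known in T cells for restraining receptor signalling, SOCS1 blocks interferon and common gamma chain signalling, and SOCS3 blocks signals that pass through gp130.

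The promoters of Cish, which rose at both ages, and Socs3, which rose at 10 days, are shown with that of Pim2, which fell, because STAT proteins bind the palindrome TTCNNNGAA (the GAS element). RefSeq windows from 250 bases before to 50 bases after the annotated start (GRCm38.p6) were found for 5 of the 6 genes. For Socs2, which also rose at both ages, none was found, so its promoter was not examined. The windows shown are chr9:107296409-107296708 on the plus strand for Cish, chr11:117969317-117969616 on the minus strand for Socs3 and chrX:7878056-7878355 on the plus strand for Pim2. Capitals mark every match to TTCNNNGAA, which reads the same on both strands.
Cish: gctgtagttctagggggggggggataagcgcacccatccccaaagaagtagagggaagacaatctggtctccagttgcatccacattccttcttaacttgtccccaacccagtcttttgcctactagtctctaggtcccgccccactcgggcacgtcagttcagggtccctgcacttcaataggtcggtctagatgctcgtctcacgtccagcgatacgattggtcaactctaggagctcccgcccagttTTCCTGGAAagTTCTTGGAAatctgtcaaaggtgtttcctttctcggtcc
Socs3: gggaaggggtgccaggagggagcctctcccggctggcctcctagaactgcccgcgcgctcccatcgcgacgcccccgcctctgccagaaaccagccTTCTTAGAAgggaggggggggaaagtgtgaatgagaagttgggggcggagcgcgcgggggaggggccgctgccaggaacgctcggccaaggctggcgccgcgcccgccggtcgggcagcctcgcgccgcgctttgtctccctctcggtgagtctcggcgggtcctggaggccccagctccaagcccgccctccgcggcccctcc
Pim2: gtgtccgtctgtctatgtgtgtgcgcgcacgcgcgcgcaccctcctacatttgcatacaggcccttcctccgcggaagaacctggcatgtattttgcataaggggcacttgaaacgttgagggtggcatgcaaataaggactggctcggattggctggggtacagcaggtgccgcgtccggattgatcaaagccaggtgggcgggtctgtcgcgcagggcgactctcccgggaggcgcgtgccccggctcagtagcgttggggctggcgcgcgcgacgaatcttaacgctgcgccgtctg
The Cish window held 2 matches, TTCCTGGAA beginning at the annotated start base and TTCTTGGAA beginning 11 bases after it. The Socs3 window held 1, TTCTTAGAA, beginning 154 bases before the start. The windows of Socs1, Pim1 (which has 2 annotated starts) and Pim2 held 0 matches. Of all 32851 RefSeq windows of this length, 8.3% held at least 1 match, and the matches describe letters in the windows, not bound sites.

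Library totals ran from 1473216 to 3019551 counts, and 16790 to 20424 symbols were detected per library. Pdcd1 averaged 445 ± 194 CPM in PD-1+ libraries, against 1.36 ± 0.591 CPM in PD-1- libraries, where CPM are counts scaled to a common library size with TMM factors and ± is the SD over 4 libraries. Foxp3, the regulatory T cell factor, summed to 4 counts over the PD-1+ libraries and 74 over the PD-1- libraries. The 8 T cell markers examined, among them Cd3e, Cd4 and Lck, were detected in both populations, with summed levels of 4789 to 7594 CPM in PD-1+ libraries, against 5166 to 5835 CPM in PD-1- libraries. Both 5-day libraries numbered 3 had Y-linked counts (601 in PD-1+ and 672 in PD-1- cells) and 1 and 5 counts of Xist, while the other 6 libraries had 0 Y-linked counts and 698 to 1842 counts of Xist, so sex is partly mixed with age.

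At both ages PD-1+ cells had more Cish and Socs2 and less Pim2 than PD-1- cells did. Over both ages together, with 4 libraries a side, 3 of the 6 genes were called, against 41.4% of all tested genes. Of these 2 were higher, against 21.9% of all tested genes, and 1 was lower, against 19.6%. Socs2, 1 of the 2, had 20 counts over the PD-1- libraries together and passed the count filter only through PD-1+ libraries. Its direction was fixed on entry, so its call is not read against these shares. A gene was called where the edgeR quasi-likelihood test gave an adjusted p (Benjamini-Hochberg over all tested genes) below 0.05. Socs1 (-0.50 ± 0.26), Socs3 (0.46 ± 0.33) and Pim1 (0.19 ± 0.24, log2 fold change ± SE) missed the threshold (edgeR adjusted p = 0.142, 0.308 and 0.551). Socs3 became called without 5-day PD-1- replicate 2 (0.75, edgeR adjusted p = 0.0375) or without 5-day PD-1+ replicate 3 (0.74, edgeR adjusted p = 0.0463). The median log2 fold change of the 6 genes, with Socs2 among them, was 0.32, against -0.012 for all tested genes. In sorted bulk cells, a difference in the share of cells with a transcript cannot be told apart from a difference in transcript per cell.

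Cish, on chromosome 9 from 107296026 to 107302784 (GRCm38, plus strand), was the member with the highest counts in PD-1+ cells. It had 1147 and 966 counts in 10-day PD-1+ libraries (409 and 339 CPM), against 56 and 42 counts in 10-day PD-1- libraries (18.1 and 27.3 CPM). At 5 days it had 775 and 634 counts in PD-1+ libraries (399 and 303 CPM), against 95 and 46 counts in PD-1- libraries (30.8 and 26.1 CPM). All 4 PD-1+ libraries lay above all 4 PD-1- libraries by a wide margin, and the ages overlapped within each population. The log2 fold change was 3.84 ± 0.18 (SE) over both ages (edgeR adjusted p = 1.4e-09), 4.09 ± 0.23 at 10 days (edgeR adjusted p = 2.04e-09) and 3.61 ± 0.22 at 5 days (edgeR adjusted p = 6.22e-09). Its exons overlap those of 2 gene models on the other strand, Gm17040 by 261 bases and Gm17041 by 479, which had 0 to 5 and 0 counts per library, and without a stated strand setting their reads cannot be told apart from those of Cish.

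Socs2, which encodes the main brake on growth hormone signalling in mice and is another STAT5 target, followed the same split at a lower level. It lies on chromosome 10 from 95385362 to 95417180 on the minus strand. Its counts were 86 and 83 in 10-day PD-1+ libraries (30.6 and 29.2 CPM), against 0 and 7 in 10-day PD-1- libraries (0 and 4.55 CPM). At 5 days its counts were 58 and 39 in PD-1+ libraries (29.9 and 18.6 CPM), against 11 and 2 in PD-1- libraries (3.56 and 1.14 CPM). The populations did not overlap at either age, nor over both. With so few libraries that is common: 64.8% of all tested genes did not overlap by PD-1 at 10 days, 68.7% at 5 days and 34.8% over both ages. Socs2 was higher by 3.61 ± 0.57 on the log2 scale over both ages (edgeR adjusted p = 0.000331) and by 4.13 ± 0.84 at 10 days (edgeR adjusted p = 0.00364). With so few PD-1- counts the 10-day value rests on single libraries: it was 2.71 without PD-1- replicate 1 and 9.24 without PD-1- replicate 2, which leaves a PD-1- library with 0 counts. At 5 days it was higher by 3.20 ± 0.77 (edgeR adjusted p = 0.00895), and the call was lost, with values of about the same size, without 5-day PD-1+ replicate 2 (2.86, edgeR adjusted p = 0.0632), with DESeq2 (3.36, adjusted p = 0.0539) and without both 5-day libraries numbered 3 (3.08, edgeR adjusted p = 0.0656).

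**Figure D1:**
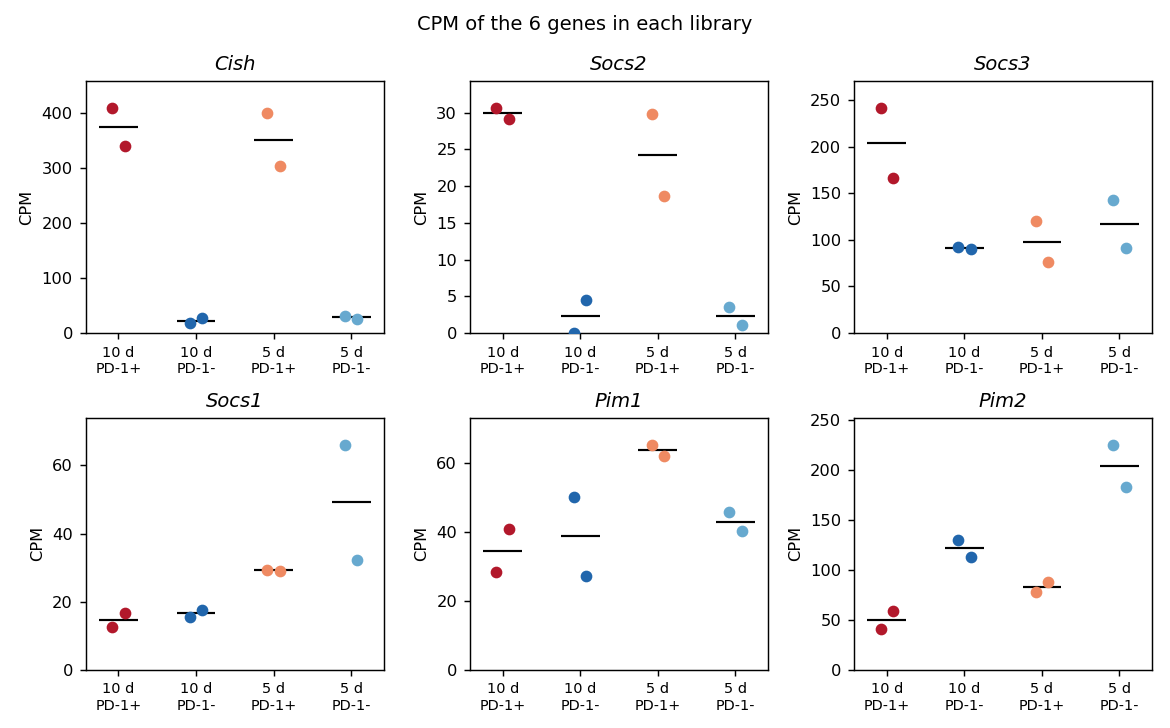
CPM (y axis, linear from 0, own scale per panel) of each gene in each library; points are libraries, lines are group means, and the x axis gives PD-1+ beside PD-1- cells, first at 10 and then at 5 days. Cish and Socs2 separate by PD-1, Socs3 stands at 166 and 241 CPM in 10-day PD-1+ libraries alone, and Pim2 lies lower in PD-1+ cells at each age.

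Pim2, on the X chromosome from 7878262 to 7883432 (plus strand), fell in PD-1+ cells. It had 41.3 and 59.0 CPM in 10-day PD-1+ libraries, against 130 and 113 CPM in 10-day PD-1- libraries. At 5 days it had 77.7 and 88.3 CPM in PD-1+ libraries, against 226 and 183 CPM in PD-1- libraries. Populations did not overlap within an age or over both. The log2 fold change was -1.29 ± 0.15 over both ages (edgeR adjusted p = 1.21e-05), -1.28 ± 0.21 at 10 days (edgeR adjusted p = 0.000178) and -1.30 ± 0.20 at 5 days (edgeR adjusted p = 0.000111). The Pim2 call and its direction held under each of the 15 alternatives run over both ages, with values from -1.39 to -1.19. Pim2 is X-linked, and at 5 days it was lower in PD-1+ cells among both the female libraries (77.7 CPM in PD-1+ cells, against 226 in PD-1- cells) and the male libraries (88.3 CPM in PD-1+ cells, against 183 in PD-1- cells).

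Pim1, on chromosome 17 from 29490753 to 29496112 (plus strand), was not called by PD-1. It had 28.5 and 40.8 CPM in 10-day PD-1+ libraries and 50.2 and 27.3 CPM in 10-day PD-1- libraries, which overlapped. At 5 days it had 65.4 and 62.1 CPM in PD-1+ libraries and 45.7 and 40.3 CPM in PD-1- libraries, without overlap (log2 fold change 0.56 ± 0.29, edgeR adjusted p = 0.149). An antisense gene, Gm26885, shares 488 exonic bases with Pim1 and had 7 to 18 counts per library. Pim3, the remaining kinase of the family, averaged 149 ± 31.9 CPM in PD-1+ libraries, against 97.3 ± 27.9 CPM in PD-1- libraries, and was higher over both ages (log2 fold change 0.64 ± 0.15, edgeR adjusted p = 0.00404). It was called at 5 days (0.77, edgeR adjusted p = 0.00736) and missed the threshold at 10 days (0.51, edgeR adjusted p = 0.0588). Over both ages the called Pim genes differed in direction, with Pim2 lower and Pim3 higher.

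Socs3, on chromosome 11 from 117966079 to 117970047 (minus strand), was higher in PD-1+ cells at 10 days. It had 678 and 472 counts in 10-day PD-1+ libraries (241 and 166 CPM), against 284 and 138 in 10-day PD-1- libraries (92.0 and 89.8 CPM). At 5 days it had 233 and 160 counts in PD-1+ libraries (120 and 76.4 CPM) and 442 and 161 in PD-1- libraries (143 and 91.4 CPM). The 10-day populations did not overlap, and the 5-day populations did. At 10 days 4 of the 6 genes were called, against 29.3% of all tested genes: Cish, Socs2 and Socs3 higher (3, against 16.4%) and Pim2 lower (1, against 12.9%). The 10-day log2 fold change of Socs3 was 1.16 ± 0.27 (edgeR adjusted p = 0.00558), and the call was lost without 10-day PD-1- replicate 1 (1.19, edgeR adjusted p = 0.0622) or replicate 2 (1.15, edgeR adjusted p = 0.0551), where a lone library is taken to vary like the other groups. At 5 days 3 of the 6 were called, against 34.3% of all tested genes: Cish and Socs2 higher (2, against 17.6%) and Pim2 lower (1, against 16.7%). At each age Socs2 is not read against these shares, since it passed the count filter only through PD-1+ libraries. The 5-day log2 fold change of Socs3 was -0.27 ± 0.27 (edgeR adjusted p = 0.469). The difference between the ages in the PD-1 effect on Socs3 was 1.43 ± 0.38 on the log2 scale and was not called (edgeR adjusted p = 0.0736, range 3.79e-05 to 0.231 over 15 alternatives), while DESeq2 called it (1.39, adjusted p = 0.0255), as did edgeR with no filter (1.49, adjusted p = 3.79e-05). It was also called without 10-day PD-1+ replicate 2 (1.68, edgeR adjusted p = 0.0264), 5-day PD-1+ replicate 2 (1.76, edgeR adjusted p = 0.0497) or 5-day PD-1- replicate 3 (1.69, edgeR adjusted p = 0.00978).

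Beside these Socs3 values, the 10 genes of tissue dissociation stress, led by Junb, summed to 7431 to 7668 CPM in 10-day PD-1+ and 3642 to 3923 CPM in 10-day PD-1- libraries, and to 4388 to 5240 CPM in 5-day PD-1+ and 1936 to 2216 CPM in 5-day PD-1- libraries. Of these 10 genes, 7 were called higher and 0 lower in 10-day against 5-day PD-1+ cells, where 7.39% of all tested genes were higher and 6.98% lower. By PD-1 at 10 days 4 were higher and 1 lower, where 16.4% of all tested genes were higher and 12.9% lower. Atf3, 1 of the 4, had 14 counts over the PD-1- libraries together and passed the count filter only through PD-1+ libraries. Its direction by PD-1 was fixed on entry, so that call is not read against these shares. The part of the 10 genes in the Socs3 differences was not tested.

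Over all 6 genes, 0 were called for that difference between the ages by edgeR with the low-count filter and no further term, where 2.12% of all tested genes were called (1.2% higher and 0.923% lower). Socs3 was the 1 gene of the 6 with an unadjusted p below 0.05, against 15.0% of all tested genes, and DESeq2 called 1. The differences were 0.48 ± 0.31 for Cish, 0.94 ± 1.24 for Socs2, 0.59 ± 0.51 for Socs1, -0.76 ± 0.41 for Pim1 and 0.02 ± 0.29 for Pim2 on the log2 scale (edgeR adjusted p from 0.411 to 0.994).

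Socs1, on chromosome 16 from 10782240 to 10785536 (minus strand), was not called at 10 days (log2 fold change -0.18 ± 0.38, edgeR adjusted p = 0.768). It then had 12.5 and 16.5 CPM in PD-1+ libraries and 15.5 and 17.6 CPM in PD-1- libraries, which overlapped. At 5 days it had 29.3 and 29.1 CPM in PD-1+ libraries, against 66.1 and 32.4 CPM in PD-1- libraries. Both 5-day PD-1+ libraries were lower, and the 5-day PD-1- libraries lay far apart (log2 fold change -0.77 ± 0.34, edgeR adjusted p = 0.0886). The value rests on single 5-day PD-1- libraries: it was -1.17, and called, without replicate 3 and -0.14, and not called, without replicate 2.

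**Figure D2:**
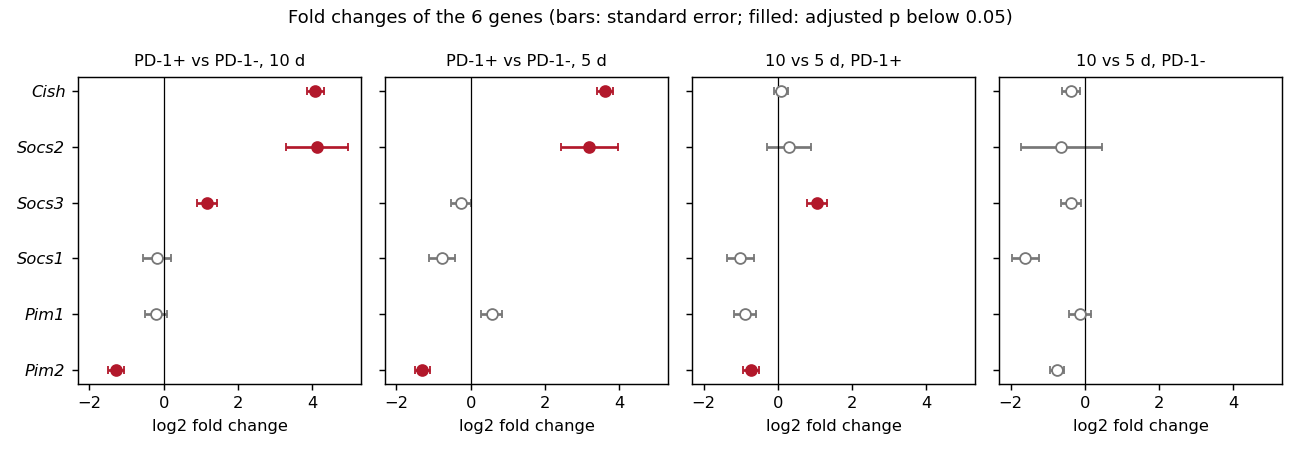
Log2 fold changes (x axis) with standard errors for the 6 genes (rows) in 4 comparisons, filled red where the edgeR adjusted p is below 0.05. Cish and Socs2 lie near 3 to 4 and Pim2 near -1.3 in the PD-1 comparisons at both ages, while Socs3 is filled at 10 days and for age within PD-1+ cells.

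Between 5 and 10 days within PD-1+ cells, Socs3 rose and Pim2 fell, so that 2 of the 6 genes were called, against 14.4% of all tested genes (1 higher, against 7.39%, and 1 lower, against 6.98%). Socs3 averaged 204 ± 53.5 CPM in 10-day and 98.2 ± 30.8 CPM in 5-day PD-1+ libraries (SD, n = 2 each), a log2 fold change of 1.05 ± 0.26 (edgeR adjusted p = 0.0204). The Socs3 call was lost without 10-day PD-1+ replicate 1 (0.76, edgeR adjusted p = 0.133) and without 5-day PD-1+ replicate 3 (0.74, edgeR adjusted p = 0.147). Pim2 averaged 50.2 ± 12.5 CPM in 10-day and 83.0 ± 7.50 CPM in 5-day PD-1+ libraries, a log2 fold change of -0.73 ± 0.21 (edgeR adjusted p = 0.029). The Pim2 call was lost without 10-day PD-1+ replicate 1 (-0.49, edgeR adjusted p = 0.238), 5-day PD-1+ replicate 2 (-0.84, edgeR adjusted p = 0.079) or 5-day PD-1+ replicate 3 (-0.65, edgeR adjusted p = 0.157). Pim1 and Socs1 were lower in both 10-day than in both 5-day PD-1+ libraries without being called (-0.88 ± 0.29, edgeR adjusted p = 0.0537, and -1.01 ± 0.36, edgeR adjusted p = 0.0715), where 58.5% of all tested genes did not overlap. Both lie near the threshold: Pim1 became called on leaving out any 1 of the 4 PD-1- libraries (-0.89 to -0.88, edgeR adjusted p from 0.0366 to 0.0449), and Socs1 without 5-day PD-1- replicate 2 (-1.01, edgeR adjusted p = 0.047) or replicate 3 (-1.02, edgeR adjusted p = 0.0335). Cish and Socs2 differed by 0.09 ± 0.19 and 0.31 ± 0.60 (edgeR adjusted p = 0.79 and 0.787).

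Within PD-1- cells 0 of the 6 genes were called by age with all 8 libraries, by edgeR with the low-count filter or by DESeq2. By edgeR with that filter, 0.27% of all tested genes were called (0.148% higher and 0.122% lower). Unadjusted p-values were below 0.05 for 2 of the 6, against 10.6% of all tested genes. Socs1 averaged 16.6 ± 1.43 CPM in 10-day and 49.2 ± 23.9 CPM in 5-day PD-1- libraries (log2 fold change -1.60 ± 0.36, unadjusted p = 0.000327, edgeR adjusted p = 0.0695). Pim2 averaged 122 ± 11.8 CPM in 10-day and 204 ± 30.2 CPM in 5-day PD-1- libraries (-0.75 ± 0.20, unadjusted p = 0.00156, edgeR adjusted p = 0.152). In both cases the 10-day libraries lay below the 5-day libraries, and 39.9% of all tested genes did not overlap in this comparison. Socs1 became called without 5-day PD-1- replicate 3 (-1.99), and without 10-day PD-1+ replicate 1 or 2 (-1.60 each). Leaving out 1 library at a time, its values ranged from -1.99 to -0.98.

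Divided by the length of exons of coding transcripts, the levels could be compared between genes. In PD-1+ libraries Cish led at 99.4 ± 13.8 CPM per kb, followed by Pim3 at 61.2 ± 13.2, Socs3 at 59.1 ± 27.7, Pim2 at 32.6 ± 10.15, Pim1 at 15.8 ± 5.65, Socs2 at 9.90 ± 2.07 and Socs1 at 7.52 ± 2.98 CPM per kb (SD, n = 4). In PD-1- libraries Pim2 led at 79.6 ± 25.1 CPM per kb, followed by Socs3 at 40.8 ± 10.2, Pim3 at 40.1 ± 11.5, Pim1 at 13.1 ± 3.18, Socs1 at 11.3 ± 8.04, Cish at 7.02 ± 1.47 and Socs2 at 0.846 ± 0.771 CPM per kb. Pim3 and Socs3 lay within their spread of each other in both orders, as did Socs2 and Socs1 in PD-1+ libraries and Pim1 and Socs1 in PD-1- libraries. By these lengths Cish stood first in PD-1+ cells and next to last of the 7 in PD-1- cells. The first place depends on the length: over the exons of all transcripts, a choice made after seeing the data, Pim3 (61.2 ± 13.2 CPM per kb), Cish (56.5 ± 7.82) and Socs3 (52.2 ± 24.4) lay within their spread of each other in PD-1+ libraries. In PD-1- libraries Cish, at 3.99 ± 0.833 CPM per kb, was next to last with these lengths too.

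The 8 genes of the Socs family, Cish and Socs1 to Socs7, summed to 188 ± 35.8 CPM per kb in PD-1+ libraries, against 72.2 ± 21.3 CPM per kb in PD-1- libraries. Cish made up 48.4 to 57.7% of that sum in PD-1+ libraries, against 8.17 to 11.3% in PD-1- libraries. Socs3 made up 20.8 to 40.9% in PD-1+ libraries, against 53.0 to 65.2% in PD-1- libraries. The leading family member by this measure was Cish in PD-1+ and Socs3 in PD-1- cells. With lengths over the exons of all transcripts, Cish took 39.1 to 48.5% and Socs3 26.9 to 51.3% in PD-1+ libraries, ranges that overlap, so the order in PD-1+ cells depends on the length used. Among the 3 Pim genes, Pim2 made up 22.4 to 39.2% in PD-1+ libraries, against 47.1 to 72.5% in PD-1- libraries, and Pim3 42.7 to 67.5% in PD-1+ libraries, against 17.9 to 45.4% in PD-1- libraries. Pim1 took between 7.48 and 18.1% in any library.

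**Figure D3:**
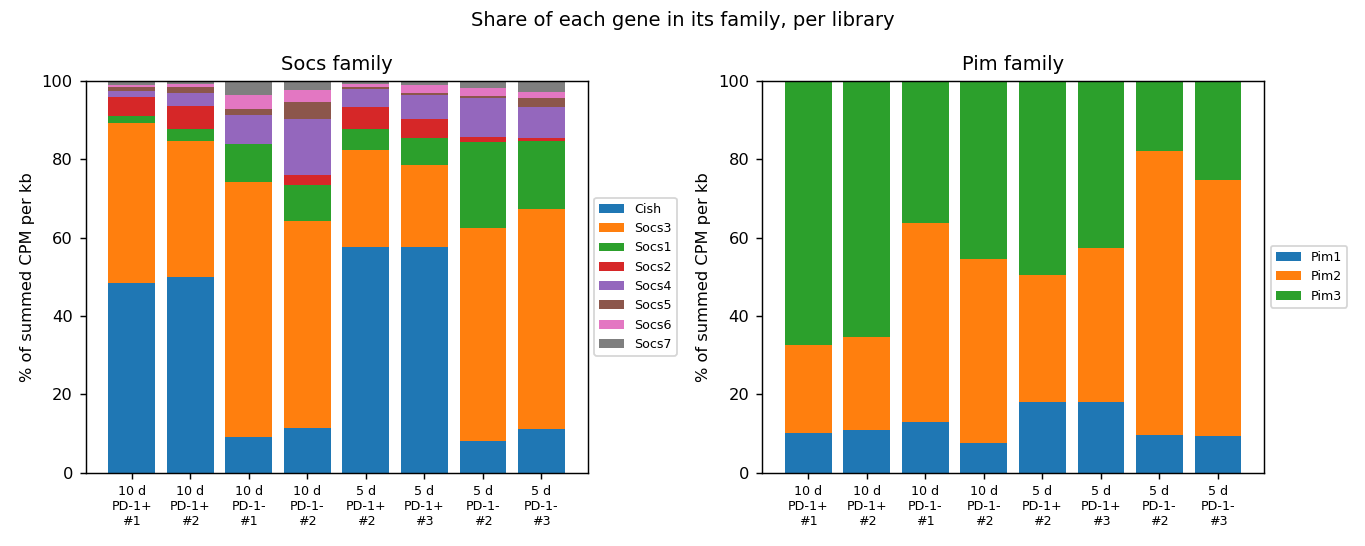
Share (y axis, percent) of each gene in the summed CPM per kb of the Socs family and of the Pim family, 1 bar per library, with PD-1+ left of PD-1- libraries at 10 and then at 5 days. Cish fills 48.4 to 57.7% of the PD-1+ bars and 8.17 to 11.3% of the PD-1- bars, and Pim2 is smaller in PD-1+ bars at each age.

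Around the members, the other genes of the pathway are read against all tested genes, of which 21.9% were higher and 19.6% lower over both ages, with a median log2 fold change of -0.012. The relatives Socs4, Socs5, Socs6 and Socs7 were not called in the comparison over both ages (0 of 4 by edgeR, list median -0.06), with log2 fold changes of -0.15 ± 0.31, 0.27 ± 0.50, -0.04 ± 0.38 and -0.08 ± 0.31. Of 5 partners of the SOCS box in the ubiquitin ligase, 2 rose over both ages, 0 fell and 3 were not called (median 0.35). Elob, an elongin that binds the box, rose by 0.88 ± 0.24 (edgeR adjusted p = 0.00896) and its partner Eloc by 0.48 ± 0.15 (edgeR adjusted p = 0.0208). Cul5, the cullin scaffold, and Rnf7, its RING protein, were at -0.42 ± 0.20 and 0.35 ± 0.18. Of 11 other brakes on the pathway, 4 rose, 2 fell and 5 were not called (median -0.04). Ptpn11, the phosphatase SHP-2, averaged 173 ± 82.2 CPM in PD-1+ libraries, against 38.8 ± 8.14 CPM in PD-1- libraries (2.02 ± 0.29, edgeR adjusted p = 0.000338). Pias1 and Pias2, SUMO ligases that restrain STATs, fell (-0.92 ± 0.14 and -1.16 ± 0.22, edgeR adjusted p = 9.87e-05 and 0.000695). Their relative Pias3 rose (1.22 ± 0.32, edgeR adjusted p = 0.00697), and Pias4 was not called (-0.43 ± 0.17, edgeR adjusted p = 0.0541). Dusp5, a phosphatase of ERK, rose by 1.00 ± 0.25 (edgeR adjusted p = 0.0063).

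Of the 4 JAK kinases, 3 rose and 1 fell in PD-1+ cells over both ages (median 0.91). Jak1, which serves most of these receptors, averaged 597 ± 59.0 CPM in PD-1+ libraries, against 1065 ± 164 CPM in PD-1- libraries (-0.83 ± 0.12, edgeR adjusted p = 7.33e-05). Jak2, Jak3 and Tyk2 rose by 0.87 ± 0.16, 0.95 ± 0.21 and 0.94 ± 0.16 (edgeR adjusted p = 0.00046, 0.0037 and 0.000346). The Jak3 effect differed between the ages by 1.17 ± 0.23 (edgeR adjusted p = 0.0144): it was 1.53 ± 0.17 at 10 days (called) and 0.37 ± 0.16 at 5 days (edgeR adjusted p = 0.0939). Of the 7 STATs, 1 rose, 1 fell and 5 were not called (median -0.27). Stat4, the mediator of IL-12, rose by 1.27 ± 0.17 (edgeR adjusted p = 2.77e-05). Stat5b averaged 104 ± 19.3 CPM in PD-1+ libraries, against 199 ± 9.34 CPM in PD-1- libraries (-0.94 ± 0.15, edgeR adjusted p = 0.000153), and its near copy Stat5a was not called (-0.27 ± 0.14, edgeR adjusted p = 0.153). Stat2, a factor of interferon signalling, was at -1.20 ± 0.49 (edgeR adjusted p = 0.095).

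Receptor chains upstream of the feedback genes moved in both directions, with 7 of 20 tested higher, 5 lower and 8 not called over both ages (median 0.18). Among the 7, Il2ra and Il9r had 37 and 11 counts over the PD-1- libraries together and passed the count filter only through PD-1+ libraries. Their direction was fixed on entry, so these calls are not read against all tested genes. Il2rb, the signalling chain for IL-2 and IL-15, averaged 1083 ± 115 CPM in PD-1+ libraries, against 62.4 ± 20.4 CPM in PD-1- libraries (4.11 ± 0.23, edgeR adjusted p = 3.33e-08). Il2ra, the high-affinity IL-2 receptor chain, averaged 63.3 ± 47.7 CPM in PD-1+ libraries, against 3.63 ± 3.60 CPM in PD-1- libraries (4.11 ± 0.37, edgeR adjusted p = 9.65e-07). Il7r, the receptor chain for the survival cytokine IL-7, averaged 19.1 ± 6.19 CPM in PD-1+ libraries, against 361 ± 97.6 CPM in PD-1- libraries (-4.25 ± 0.28, edgeR adjusted p = 8e-07). Il12rb1, a chain of the IL-12 receptor, rose by 3.02 ± 0.22 (edgeR adjusted p = 8.7e-08). Il6ra, the receptor for IL-6, and Il6st, which encodes gp130, the chain that SOCS3 binds, fell by 2.59 and 1.73 on the log2 scale (SE 0.17 and 0.16, edgeR adjusted p = 3.33e-08 and 1.18e-06).

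Of 16 ligands that activate STATs, 9 could be tested, of which 8 rose, 0 fell and 1 was not called over both ages. The 7 others had too few counts. Il2, Il4, Il5, Il10, Il21 and Csf2, with 0 to 10 counts over the PD-1- libraries together, passed the count filter only through PD-1+ libraries. Their direction was fixed on entry, so neither the number that rose nor the median is read against all tested genes. Ifng, the macrophage-activating cytokine, averaged 490 ± 138 CPM in PD-1+ libraries, against 2.78 ± 2.28 CPM in PD-1- libraries (7.43 ± 0.60, edgeR adjusted p = 8.85e-05). Il21, which supports B cells and signals through STAT3, had 637 counts in PD-1+ and 0 in PD-1- libraries, which is at least 188-fold higher with a floor of 3 counts over the PD-1- libraries together. Il4, the type 2 cytokine, had 95 counts in PD-1+ and 0 in PD-1- libraries, or at least 28.0-fold higher with the same floor. Il2, the T cell growth factor, had 172 counts in PD-1+ and 2 in PD-1- libraries, and Il10, which restrains inflammation, 2651 counts in PD-1+ and 10 in PD-1- libraries. The median log2 fold change of the 9 was 7.43, or 5.97 with the 3 ligands at 0 in PD-1- libraries set to this lower bound.

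Genes commonly listed as STAT5 targets did not move as 1 block, with 5 of 13 higher, 3 lower and 5 not called over both ages (median 0.13). Il2ra, 1 of the 5 higher, passed the count filter only through PD-1+ libraries, so its direction was fixed on entry. Gzmb, the granule protease, averaged 872 ± 427 CPM in PD-1+ libraries, against 20.6 ± 8.02 CPM in PD-1- libraries (5.45 ± 0.52, edgeR adjusted p = 0.000244). Bcl2l1, which encodes the survival protein BCL-XL, rose by 2.12 ± 0.18 (edgeR adjusted p = 2.71e-07), whereas Bcl2 fell by 2.66 on the log2 scale (SE 0.35, edgeR adjusted p = 0.000512). Il4ra, the IL-4 receptor chain, fell by 1.68 on the log2 scale (SE 0.18, edgeR adjusted p = 4.08e-06). Of 9 genes whose proteins are described PIM substrates, 1 rose, 3 fell and 5 were not called (median -0.59). Cdkn1a, the cell cycle inhibitor p21, was the one that rose, at 139 ± 43.8 CPM in PD-1+ libraries, against 4.65 ± 1.65 CPM in PD-1- libraries (4.99 ± 0.29, edgeR adjusted p = 9.61e-09). Cdkn1b and Foxo1, regulators of quiescence, fell (-1.35 ± 0.13 and -1.59 ± 0.16, edgeR adjusted p = 1.33e-06 and 1.75e-06), and so did Foxo3, a relative of Foxo1 (-0.59 ± 0.23, edgeR adjusted p = 0.0481). Among the pathway genes named above, the PD-1 effects on Ptpn11 (2.77 at 10 days and 1.25 at 5 days), Il7r (-4.92 at 10 days and -3.58 at 5 days) and Bcl2 (-1.90 at 10 days and -3.46 at 5 days) also differed between the ages (edgeR adjusted p = 0.0137, 0.0339 and 0.0244), with the same direction at each. Among the T cell markers, the effects on Cd3e (0.64 at 10 days and -0.45 at 5 days) and Cd3g (0.59 at 10 days and -0.47 at 5 days) changed direction (edgeR adjusted p = 0.0159 and 0.0392).

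Profiles across the 8 libraries were compared by Pearson correlation of log2 CPM with 7051 well-measured genes, as a description only, since the libraries share depth and the division by PD-1. Closest to Cish were Tnfrsf18, the costimulatory receptor GITR (r = 0.998), Stx11, a syntaxin of granule release (r = 0.998), and Rgs1, a brake on chemokine receptors (r = 0.995). Closest to Socs2 was Ehd1, an endocytic recycling protein (r = 0.994), followed by Crcp, an RNA polymerase III subunit (r = 0.978), and Ugdh, an enzyme of UDP-glucuronate synthesis (r = 0.974). Closest to Pim2 were Sp110, a nuclear body protein (r = 0.976), the lymph node homing receptor Ccr7 (r = 0.962) and Arid5a, an RNA-binding protein (r = 0.960). Closest to Socs3 were Cbx6, a Polycomb protein (r = 0.950), Tor1aip1, a protein of the nuclear envelope (r = 0.948), and Il21r, the IL-21 receptor (r = 0.948). Socs1 was closest to Nfya, a CCAAT-binding factor (r = 0.947), then to the lipase gene Pnpla2 (r = 0.924) and the interferon-induced GTPase gene Tgtp1 (r = 0.896). Pim1 was closest to Ncbp1, a cap-binding protein (r = 0.950), Mecr, of mitochondrial fatty acid synthesis (r = 0.948), and Gart, of purine synthesis (r = 0.946). Among the members, Cish and Socs2 were the most alike (r = 0.948), Socs1 and Pim2 followed (r = 0.724), and Cish and Pim2 were the most opposed (r = -0.836).

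Transcripts that mark other cells also differed by population, and their part in these results was not tested. The 6 hepatocyte markers summed to 26.3 to 78.2 CPM in PD-1+ libraries, against 10.2 to 19.8 CPM in PD-1- libraries, with Serpina1a at 0 counts in PD-1- libraries. The 4 markers shared with regulatory T cells, Foxp3, Il2ra, Ikzf2 and Ctla4, summed to 845 to 1629 CPM in PD-1+ libraries, against 45.3 to 88.5 CPM in PD-1- libraries, most of it Ctla4, and the 2 Cd8 chains to 6.18 to 27.4 CPM in PD-1+ libraries, against 27.5 to 47.6 CPM in PD-1- libraries. The 6 B cell markers summed to 290 to 352 CPM in PD-1+ libraries, against 544 to 638 CPM in PD-1- libraries, most of it Ighm, and the 6 endothelial and stromal markers to 101 to 145 CPM in PD-1+ libraries, against 296 to 379 CPM in PD-1- libraries, nearly all Pecam1. The 6 erythroid markers summed to 2.81 to 5.25 CPM in PD-1+ libraries, against 10.4 to 29.8 CPM in PD-1- libraries, and the 6 dendritic markers to 31.9 to 74.4 CPM in PD-1+ libraries, against 9.40 to 21.5 CPM in PD-1- libraries. Of the dendritic sum in PD-1+ libraries 65.9% was Xcr1. Itgax averaged 5.69 CPM in PD-1+ and 0.892 in PD-1- libraries, and Clec9a 0.337 CPM in PD-1+ and 0.081 in PD-1- libraries. Zbtb46 averaged 9.68 CPM in PD-1+ and 9.07 in PD-1- libraries, and Flt3 0.913 CPM in PD-1+ and 2.07 in PD-1- libraries. Siglech averaged 0.0879 CPM in PD-1+ and 2.75 in PD-1- libraries, the latter from 34 counts in 10-day PD-1- replicate 1 alone. The 7 macrophage markers (30.4 to 51.3 CPM in PD-1+ libraries, against 27.5 to 67.6 CPM in PD-1- libraries), the 6 innate lymphoid markers (4.63 to 43.5 CPM in PD-1+ libraries, against 3.24 to 39.2 CPM in PD-1- libraries) and the 6 neutrophil markers (2.06 to 4.77 CPM in PD-1+ libraries, against 0.568 to 2.59 CPM in PD-1- libraries) overlapped, with S100a8 and S100a9 at 0 counts in PD-1+ libraries. Single markers differed within these sums. Ncr1, Klrb1c and Klre1 had 4, 5 and 4 counts in PD-1+ libraries, against 40, 48 and 23 in PD-1- libraries. Eomes and Klrd1 had 23 and 164 counts in PD-1+ libraries, against 4 and 122 in PD-1- libraries. Cd68 had 194 counts in PD-1+ and 288 in PD-1- libraries, while each other macrophage marker had more in PD-1+ libraries. Ly6g, Elane, Klra8 and Col1a1 were at 0 counts in PD-1- libraries.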

How the data were processed

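RNA of sorted liver CD4+ T cells was sequenced from 8 libraries, 2 in each of 4 groups (PD-1+ or PD-1- at 10 or 5 days). The authors deposited 1 table of raw counts per gene symbol. Per the submitters' processing notes, STAR 2.5.4, featureCounts and the build mm10 were used. The sources used here do not give the annotation, strand setting or treatment of multi-mapped reads. Columns were matched to samples by title, with 0 left unmatched.

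Genes were kept by filterByExpr (11490 of 52997), scaled by TMM and tested with robust quasi-likelihood F tests in edgeR 4.0.16 (R 4.3.3), with limma 3.58.1 loaded by edgeR. The comparison over both ages came from an additive fit with age and PD-1 terms, and the others from a fit with 1 mean per group. P-values were adjusted by Benjamini-Hochberg over all tested genes, with calls below 0.05. Each SE was obtained as |log2 fold change| over the root of its F statistic. DESeq2 1.42.0 was an alternative. The fits were tested on simulated data with known changes. Alternatives were other scalings, filters, a replicate block and leaving libraries out. Log2 CPM used a prior count of 2. Coordinates and exon lengths are from GENCODE M21 (GRCm38), promoters from RefSeq. Counting error and the 2 libraries per group limit precision. The same-numbered libraries are not stated to share an animal.

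The members and gene lists were chosen with earlier results of these data known. Named besides the members are the 3 genes most correlated with each, among genes averaging 4 or more in log2 CPM, and up to 4 genes of each list with the smallest p, plus Pdcd1, Foxp3, Cd4, Pim3, Il2ra, Il2rb, Stat5a and Stat5b. Other genes named to complete a list were chosen after their values were seen. Some genes that this rule would name are not reported here.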

Additional observations from a re-analysis of the deposited data

Results flagged for a closer look

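Over 12 sets of 4 libraries (6 genes, PD-1+ or PD-1- libraries of both ages), 2 held a library far from the other 3, and chance flags about 1 set in 20. Socs2 was at 18.6 CPM in 5-day PD-1+ replicate 3, and its gap to the next library was 0.878 of the whole range. Socs3 was at 143 CPM in 5-day PD-1- replicate 2, with a gap of 0.959 of the range. Each set spans both ages.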

How the results depend on the processing

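For the 6 genes in 6 comparisons, 483 of 540 alternative values kept their direction and side of the threshold, 12 lost a call, 22 gained one and 23 changed sign, the last among values that were not called. The Cish and Pim2 calls by PD-1 held under each alternative run at either age and over both. The number of members called higher at 5 days, 2, was 1 with DESeq2, 1 without both 5-day libraries of number 3, and 1 to 2 leaving out 1 library; the number called lower, 1, was 1 to 2. By age in PD-1+ cells, the 1 called higher became 0 without both 5-day libraries of number 3 and 0 to 1 leaving out 1 library, and the 1 called lower became 2 with RLE scaling, 0 without both 5-day libraries of number 3 and 0 to 3 leaving out 1. By age in PD-1- cells, the 0 called lower became 2 with no filter, 1 without both 5-day libraries of number 3 and 0 to 1 leaving out 1. The cause of these shifts was not tested, but fewer libraries entered the fits that left some out.

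For the difference between ages in the PD-1 effect, the 0 members called higher became 1 (Socs3) with DESeq2, with no filter and with the replicate block, and 0 to 1 leaving out 1 library. The labels do not say that same-numbered libraries share an animal, and their deviations from group means correlated by 0.114 at 10 days and 0.0938 at 5 days, so the numbers were not taken to pair them, although same-numbered 5-day libraries were of the same sex. With the replicate number as a block, Socs3 gave 1.41 (edgeR adjusted p = 0.00308), all genes called for that difference went to 263 higher and 220 lower, against 138 and 106 without it, and the other members' calls stayed as they were.

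Leaving out 1 library, the log2 fold changes that changed sign ranged from -0.59 to 0.10 (Socs3, PD-1, 5 days), -0.39 to 0.015 (Socs1, PD-1, 10 days), -0.53 to 0.35 (Pim1, PD-1, 10 days), -0.017 to 0.66 (Socs2, age, PD-1+), -0.11 to 0.28 (Cish, age, PD-1+), -5.73 to 0.79 (Socs2, age, PD-1-), -0.66 to 0.22 (Pim1, age, PD-1-), -0.032 to 0.98, -0.49 to 6.04 and -0.26 to 0.25 (Socs1, Socs2 and Pim2, difference between ages). Without both 5-day libraries of number 3, Socs2 and Cish by age in PD-1+ cells gave -0.017 and -0.11. Pim2 in the difference between ages, 0.021, gave -0.014 with RLE scaling, -0.017 with DESeq2 and -0.0032 with the replicate block.

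Over all genes, counts that moved by over 1.5 times were 1915 lower by PD-1 at 5 days (1156 without both 5-day libraries of number 3, 980 to 1888 leaving out 1), 1881 higher and 1483 lower at 10 days (1210 to 2016 and 959 to 1559 leaving out 1), 849 higher and 802 lower by age in PD-1+ cells (271 to 934 and 279 to 921 leaving out 1, and 526 higher without both 5-day libraries of number 3), 17 higher and 14 lower by age in PD-1- cells (64 and 116 with no filter, 28 and 44 with DESeq2, 29 and 60 without both 5-day libraries of number 3, 3 to 30 and 1 to 60 leaving out 1), and for the difference between ages 305 higher and 164 lower with no filter, 169 lower with DESeq2, 52 lower without both 5-day libraries of number 3, and 49 to 153 higher and 43 to 132 lower leaving out 1. Upper-quartile scaling shifted the median of all genes at 5 days to -0.113 without changing a member's call or direction. With lengths over all transcripts, an alternative chosen after seeing the data, Cish averaged 44.1% of its family in PD-1+ and 6.53% in PD-1- libraries, against 53.4% and 9.92%. Depth limits Socs2 most, with 20 counts in all PD-1- libraries together.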
